A study of Mus musculus with 8 samples.

Results

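Integrins, cadherins and their junction partners were followed as 71 probe sets of 38 genes, out of 22626 non-control probe sets and 12393 singly named genes on the array. A probe set, the array's unit of measurement, was taken when its only annotated gene was a numbered integrin alpha chain or Itgav, a numbered integrin beta chain, or a numbered cadherin. Those of Cadm1, Pkp1, Pkp2, Jup and Dsp were added, and no measured value entered this choice. There were 19 probe sets of 9 integrin alpha genes, 16 of 7 integrin beta genes, 23 of 17 cadherin genes, 9 of the 4 desmosome plaque genes and 4 of Cadm1.

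The cells were mouse embryonic fibroblasts of embryonic day 11, grown on beyond crisis, the phase of arrest that precedes an immortal culture. They were wild type or lacked MED23 (Med23-/-), a subunit of the Mediator complex that links transcription factors to RNA polymerase. All cells were kept for 16 h in medium with 0.5% fetal bovine serum, and those called stimulated then had 20% serum for 30 min before RNA was taken. The 4 groups, starved wild-type, stimulated wild-type, starved Med23-/- and stimulated Med23-/- cells, had 2 arrays each, so n = 2 for every group value here, and the study asked which serum responses depend on MED23. The labels call the arrays replicates without saying whether they came from separate cultures, so p-values measure the spread between these samples only. They describe 1 kind of culture per genotype, and MED23 loss cannot be told apart from other differences between the cultures.

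Integrins are membrane receptors made of an alpha and a beta chain, and the pairing decides which matrix protein is bound; fibroblasts use them to hold fibronectin, collagen and laminin and to anchor actin at focal adhesions. Classical cadherins join neighbouring cells by calcium-dependent binding of like molecules, and their tails hold catenins, among them plakoglobin (Jup), that connect to the cytoskeleton. Desmosomes, the spot junctions of epithelia and heart muscle, use desmoplakin (Dsp), plakoglobin and plakophilins (Pkp1, Pkp2) to tie cadherins to intermediate filaments, and Cadm1 is a cell adhesion molecule of the immunoglobulin class.

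Values are signals in arbitrary units, comparable between arrays for 1 probe set but not between probe sets. Differences are of log2(signal + 16), with the standard error (SE) of the limma fit, and folds are on that scale, which understates changes of dim probe sets. A call means a Benjamini-Hochberg adjusted limma p under 0.05 over the 14947 probe sets tested. Med23 itself was 4901 and 5410 on the starved wild-type arrays and 28 and 133 on the starved knockout arrays. In stimulated cells it was 3595 and 3577 against 34.6 and 36.9. The knockout labels and the Med23 signal therefore matched on all 8 arrays. Of 12 fibroblast markers on the array, 9 were at or above the array's 40th percentile on both arrays of each wild-type group, and 11 on both arrays of each knockout group. Their summed signal was 177516 to 196928 on wild-type and 326531 to 435262 on knockout arrays, a sum in which the brightest probe sets weigh most. Of the 11 tested, 9 were called higher and 1 lower in starved knockout cells (median difference 2.24). In stimulated ones 8 were higher and 1 lower (median 2.26). Over all tested probe sets 22.8% and 22.7% were called higher. Pdgfra and Lum passed the filter on knockout arrays only, so these counts are a description. Thy1 lay below the percentile on all 8 arrays, and Pdgfra on all wild-type arrays (13.3 to 129) against 6040 to 15782 on knockout arrays. Of 12 epithelial markers, 2 in starved wild-type, 3 in stimulated wild-type, 2 in starved knockout and 1 in stimulated knockout cells reached the percentile on both arrays, with sums from 2320 to 3842. Among the endothelial, blood, neural and muscle markers, 0 or 1 of 7, 0 or 1 of 7, 2 or 3 of 5 and 1 of 7 did so per group. The neural sums were 4724 to 7871 on wild-type and 2931 to 3401 on knockout arrays, and the muscle sums 1435 to 2458 and 1269 to 1362. Median differences of the tested genes in starved and stimulated cells were -1.12 and -1.38 for neural (4 genes) and -1.43 and -1.95 for muscle markers (2 genes). In each state 2 of the 4 neural genes were called lower and 1 higher in knockout cells, and 1 of the 2 muscle genes lower. Over all tested probe sets 47.6% and 50.2% were called. Map2, a neural marker below the percentile on all wild-type arrays, was at least 3.63-fold and at least 3.75-fold higher in knockout cells. The endothelial sums were 1074 to 1473 and 1300 to 1716, and the blood sums 943 to 1511 and 1374 to 1507. Fewer cells of a type and less RNA per cell cannot be told apart in such bulk RNA.

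The 40th percentile of an array's signals lay between 412.6 and 497.4. On each of the 4 wild-type arrays 38 of the 71 probe sets were at or above it, whereas on the knockout arrays there were 26, 26, 25 and 26. A probe set had to reach it on 2 or more arrays to be tested, which left 40 probe sets of 20 genes: 7 integrin alpha, 2 integrin beta, 6 cadherin and the 4 plaque genes, and Cadm1. Of the 40, 22 probe sets of 11 genes reached the percentile on all 8 arrays. Another 12 passed on wild-type arrays only and 1 on knockout arrays only. Those 13 passed through the genotype in which they are high and so had to differ between genotypes, which makes counts over the 40 a description and no support.

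The 31 untested probe sets lay below the percentile on every array, and 18 genes had no tested probe set. They were Cdh1, Cdh3, Cdh4, Cdh5, Cdh8, Cdh9, Cdh10, Cdh15, Cdh16, Cdh20 and Cdh23 among the cadherins, Itga2 and Itga4 among the alpha chains, and Itgb2, Itgb3, Itgb4, Itgb6 and Itgb7 among the beta chains. Cdh1, the cadherin of epithelia, had signals from 22.1 to 116. Cdh5, the endothelial cadherin, did not exceed 232, and Itgb2, the beta chain of leukocytes, did not exceed 204. Itgb3, which pairs with Itgav, came closest among the beta chains, with 437 on stimulated wild-type array 2. The highest signals of untested probe sets were 423 among cadherins and 379 among alpha chains. A probe set below the percentile may still detect a weakly expressed gene, and no level is given for these genes.

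**Figure D1:**
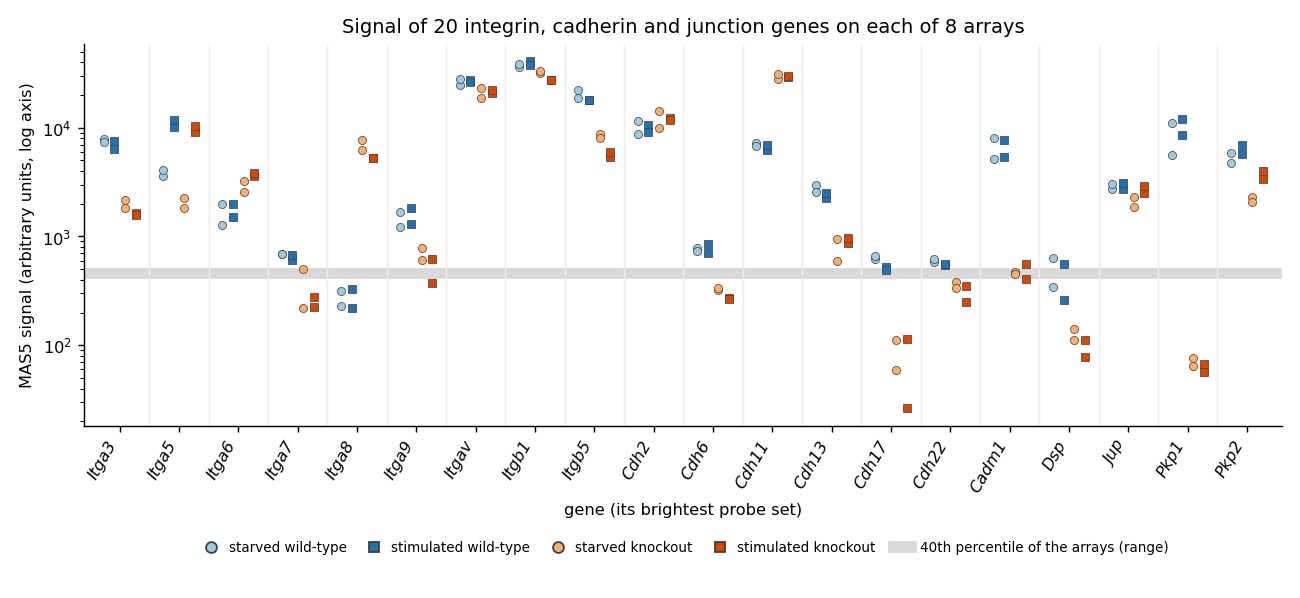
Signal on a log axis (arbitrary units) of the brightest probe set of each of the 20 tested genes, 1 point per array and 2 arrays per group; circles are starved and squares stimulated cells, blue wild-type and orange knockout. The grey band spans the 40th percentiles of the 8 arrays (412.6 to 497.4); Pkp1 lies far above it on the wild-type arrays and below it on the knockout arrays, Itga8 the other way round, and the Itga5 squares lie above its circles in both genotypes.

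The sequence before the transcript start is shown for 4 integrin genes with the clearest differences: Itga5, which rose with serum, Itgb5, which was lower in knockout cells and fell there with serum, Itga3, lower in knockout cells, and Itga8, higher in them. Each is the 250 bases upstream of the start in RefSeq, build GRCm38.p6, written 5′ to 3′ on the gene's strand. Itga5 is at chr15:103366792-103367041 on the minus strand, Itgb5 at chr16:33829415-33829664 on the plus strand, Itga3 at chr11:95076715-95076964 on the minus strand (the outermost of 2 listed starts) and Itga8 at chr2:12301945-12302194 on the minus strand. Capitals mark matches on either strand to the GC box GGGCGG and the Snail E-box CAGGTG.
Itga5: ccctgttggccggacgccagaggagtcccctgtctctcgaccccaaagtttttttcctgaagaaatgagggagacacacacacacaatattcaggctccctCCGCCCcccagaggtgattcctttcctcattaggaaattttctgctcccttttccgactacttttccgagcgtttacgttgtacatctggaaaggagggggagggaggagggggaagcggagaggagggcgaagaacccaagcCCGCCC
Itgb5: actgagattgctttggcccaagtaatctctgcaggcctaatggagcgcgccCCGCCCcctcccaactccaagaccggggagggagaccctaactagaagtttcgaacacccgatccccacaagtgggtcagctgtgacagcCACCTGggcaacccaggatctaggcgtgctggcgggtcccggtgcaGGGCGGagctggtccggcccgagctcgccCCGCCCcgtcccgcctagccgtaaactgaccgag
Itga3: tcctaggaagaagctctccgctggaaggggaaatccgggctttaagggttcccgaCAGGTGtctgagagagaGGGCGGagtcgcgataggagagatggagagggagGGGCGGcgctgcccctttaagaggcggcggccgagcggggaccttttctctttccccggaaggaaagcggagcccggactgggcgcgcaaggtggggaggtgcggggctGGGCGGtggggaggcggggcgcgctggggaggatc
Itga8: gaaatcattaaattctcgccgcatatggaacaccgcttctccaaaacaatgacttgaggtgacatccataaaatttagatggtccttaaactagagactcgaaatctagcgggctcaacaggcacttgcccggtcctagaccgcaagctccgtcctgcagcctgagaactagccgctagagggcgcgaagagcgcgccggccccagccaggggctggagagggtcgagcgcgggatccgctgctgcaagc

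The GC box, bound by Sp-family factors, matched 2 times in the Itga5 window, beginning 149 and 6 bases before the start. It matched 3 times each in the Itgb5 and Itga3 windows and had no match in the Itga8 window. Of 32851 mouse promoters of the same length, 32.7% held it. The Snail E-box matched 109 bases before the Itgb5 start and 195 before the Itga3 start, and 17.2% of all promoters held it. The AP-1 site TGACTCA, the cAMP response element TGACGTCA, the CArG box of serum response factor and the TATA box TATAAA, held by 4.46%, 1.55%, 1.47% and 12.4% of promoters, had no match in these 4 windows. GC content was 55.6% for Itga5, 65.2% for Itgb5, 67.6% for Itga3 and 56.4% for Itga8. A match is a match of letters only, and 21 of the 38 genes had an entry in the promoter table.

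Most of the adhesion genes that could be measured had lower signals in knockout than in wild-type cells. In starved cells 32 of the 40 probe sets were called lower and 4 higher in knockout cells, where 24.8% of all tested probe sets were called lower and 22.8% higher (47.6% in either direction). In stimulated cells 29 were called lower and 4 higher, against 27.5% and 22.7% of all (50.2% in either direction). The median difference of the 40 was -1.17 in starved and -1.28 in stimulated cells, beside -0.01 and -0.07 over all tested probe sets, and the 22 at or above the percentile on all 8 arrays had medians of -0.85 and -0.46. Among those 22, 15 were lower and 3 higher in starved knockout cells. Of all such probe sets 24.3% were called lower and 22.5% higher there (46.8% in either direction). In stimulated knockout cells 14 were lower and 3 higher, against 26.5% and 22.9% of all such probe sets (49.4% in either direction). The 22 belong to 11 genes, so genes with several probe sets count more than once. By gene, each read from its brightest probe set, 15 of 20 were lower and 3 higher in starved knockout cells, and 14 lower and 3 higher in stimulated ones. Of these calls by probe set, 26 of the 36 in starved cells and 26 of the 33 in stimulated cells held under every alternative processing tried, and none changed sign. The 36, the 33 and the counts by gene include probe sets that passed the filter through 1 genotype only, so these counts too are a description and no support. Of the 12 epithelial markers 4 were tested; 1 was called lower and 3 did not pass in each state, with a median of 0.51 in starved and -0.68 in stimulated cells. The 1 was Krt19, at -2.84 ± 0.63 (adjusted p = 0.00399) and -4.27 ± 0.63 (adjusted p = 0.000332); it was below the percentile on all knockout arrays, as bounds at least 1.57-fold and at least 1.63-fold lower, while Epcam was below the percentile on all arrays (18.1 to 249). The part of other cell types in the differences between genotypes was not tested.

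**Figure D2:**
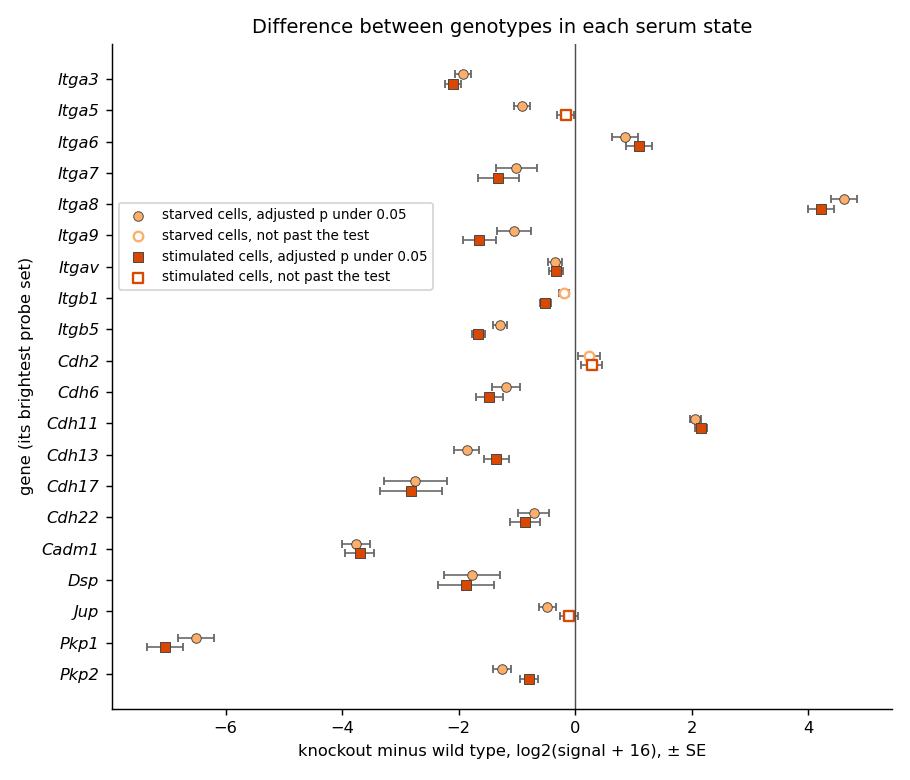
Difference between knockout and wild-type cells in log2(signal + 16) (horizontal axis) for the brightest probe set of the 20 tested genes, with bars of 1 SE of the limma fit (2 arrays per group); circles are starved and squares stimulated cells, and open symbols did not pass the test. Pkp1 (-6.50 and -7.03) and Cadm1 (-3.77 and -3.70) lie far to the left, Itga8 (4.62 and 4.22) and Cdh11 (2.07 and 2.17) to the right, and Cdh2 lies near 0 in both states.

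Among the alpha chains, Itga8 and Itga6 were higher and Itga3, Itga5, Itga7, Itga9 and Itgav lower in starved knockout cells. Over all tested probe sets 22.8% were called higher and 24.8% lower there. Itga8 passed the filter on knockout arrays only. Itga5 did not pass in stimulated cells by its brightest probe set. Itga8, whose product pairs with beta 1 and binds nephronectin and other proteins with an RGD motif, had signals of 318 and 229 on the starved wild-type arrays and 6296 and 7782 on the starved knockout arrays. In stimulated cells it was 326 and 220 against 5309 and 5213. All 4 knockout arrays lay far above all wild-type arrays, where the probe set was below the 40th percentile. The difference was 4.62 ± 0.22 (SE) in starved (adjusted p = 2.5e-07) and 4.22 ± 0.22 in stimulated cells (adjusted p = 4.3e-07). Counting the dim wild-type arrays at their 40th percentile, this was at least 14.8-fold and at least 11-fold higher.

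Itga6, a chain of laminin receptors, was the other alpha chain with more signal in the knockout. Its signals were 2002 and 1273 on starved wild-type and 3250 and 2578 on starved knockout arrays, and 1991 and 1500 against 3614 and 3823 in stimulated cells. The groups did not overlap in either state. The difference was 0.85 ± 0.22 in starved (adjusted p = 0.0103) and 1.10 ± 0.22 in stimulated cells (adjusted p = 0.00244). The starved call was lost without starved wild-type array 2 (0.53, adjusted p = 0.0902) or starved knockout array 1 (0.69, adjusted p = 0.0675). A second probe set gave 1.49 and 1.53.

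Itga3, a chain of another laminin receptor, had lower signals in knockout cells by all of its probe sets. Its brightest probe set read 7946 and 7319 on starved wild-type and 1839 and 2155 on starved knockout arrays, and 7502 and 6327 against 1649 and 1561 in stimulated cells. Each wild-type array was more than any knockout array. The difference was -1.93 ± 0.14 in starved (3.81-fold, adjusted p = 2.9e-06) and -2.09 ± 0.14 in stimulated cells (4.26-fold, adjusted p = 1.9e-06). Its other probe sets gave larger differences, -2.82 and -3.39 for 1460305_at and -4.51 and -5.20 for 1421997_s_at. The last was below the 40th percentile on all knockout arrays, so its fold is given as at least 9.26 in starved and at least 11.1 in stimulated cells.

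Itga9, whose product binds tenascin and other ligands, was 1225 and 1697 on starved wild-type and 603 and 788 on starved knockout arrays. In stimulated cells it was 1315 and 1832 against 374 and 628. Knockout arrays were lower without overlap, by -1.05 ± 0.29 in starved (adjusted p = 0.0126) and -1.65 ± 0.29 in stimulated cells (adjusted p = 0.000959). The starved call was lost without starved wild-type array 2 (-0.82, adjusted p = 0.099) or starved knockout array 1 (-0.86, adjusted p = 0.0732). A second probe set, 1450029_s_at, was called in starved cells (-2.98, adjusted p = 0.0031) but not in stimulated cells (-1.07, adjusted p = 0.181). It was below the percentile on all knockout arrays, so the called starved difference is given as at least 1.74-fold lower. The stimulated bound of 1.59-fold describes these arrays only, as that difference was not called.

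Itga7, best known as the laminin receptor chain of muscle, read 697 and 689 on starved wild-type arrays and 222 and 505 on starved knockout arrays. In stimulated cells the values were 613 and 680 against 226 and 276. The starved knockout arrays were far apart, and the starved difference of -1.01 ± 0.35 (adjusted p = 0.0373) came to -0.44 without starved knockout array 1 (adjusted p = 0.238) and to -1.58 without array 2. The starved call was lost in 7 of 17 alternatives, which also include leaving out any wild-type array and applying no signal filter. In stimulated cells the difference was -1.32 ± 0.35 (adjusted p = 0.0108), lost without stimulated wild-type array 2 (adjusted p = 0.0571) or stimulated knockout array 1 (adjusted p = 0.0626). Both stimulated knockout arrays lay below the 40th percentile, so it is given as at least 1.5-fold lower. With the largest pseudocount tried the starved difference was -0.65 and the stimulated one -0.83.

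Itgav, the partner of several beta chains in fibronectin and vitronectin receptors, had high signals in every group. They were 24573 and 28212 on starved wild-type and 18762 and 22958 on starved knockout arrays, and 27546 and 26018 against 20645 and 22005 in stimulated cells. The differences were small, -0.34 ± 0.12 (adjusted p = 0.0372) and -0.33 ± 0.12 (adjusted p = 0.0421), and these calls were lost in 10 and 7 of 18 alternatives. Quantile normalization gave -0.52 in stimulated cells and median centring -0.17 (adjusted p = 0.292), and leaving out starved knockout array 1 gave -0.20 in starved cells (adjusted p = 0.202). The 2 dimmer probe sets showed more, -0.80 and -1.21 in starved and -0.95 and -1.53 in stimulated cells, and these kept their calls under every alternative.

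Of the beta chains, only Itgb1 and Itgb5 were measurable. Itgb5, which pairs with Itgav in a vitronectin receptor, was lower in knockout cells by all 4 of its probe sets in both states. The brightest read 18641 and 22171 on starved wild-type and 8700 and 7984 on starved knockout arrays, and 17781 and 18097 against 5352 and 5995 in stimulated cells. The difference was -1.28 ± 0.12 in starved (2.44-fold, adjusted p = 1.5e-05) and -1.66 ± 0.12 in stimulated cells (3.16-fold, adjusted p = 2.8e-06). The other probe sets ranged from -1.43 to -1.06 in starved and from -1.98 to -1.24 in stimulated cells.

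Itgb1, the common beta chain of most matrix receptors, was 36033 and 38208 on starved wild-type, 32108 and 32878 on starved knockout, 40716 and 37830 on stimulated wild-type and 27675 and 27424 on stimulated knockout arrays. Knockout arrays were the lower in both states. Its difference did not pass in starved cells (-0.19 ± 0.09, adjusted p = 0.0991) and passed in stimulated cells (-0.51 ± 0.09, 1.42-fold, adjusted p = 0.000909). After quantile normalization both passed, at -0.49 (adjusted p = 0.000283) and -0.78. A second probe set gave -0.32 (adjusted p = 0.022) and -0.28 (adjusted p = 0.0383), calls that were lost in 5 and 6 of 18 alternatives, among them median centring (-0.11, adjusted p = 0.434, in stimulated cells) and leaving out wild-type array 2 or knockout array 1 of the state. The next gave -0.25 and -0.22 with no call, and 3 more were below the percentile on all arrays.

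Of the 6 measurable cadherins, Cdh11 was higher, Cdh6, Cdh13, Cdh17 and Cdh22 were lower in knockout cells, and Cdh2 did not pass. Cdh6, Cdh17 and Cdh22 passed the filter on wild-type arrays only, so this count is a description and no support. Over all tested probe sets 24.8% were called lower and 22.8% higher in starved knockout cells, and 27.5% and 22.7% in stimulated ones. Cdh11, a cadherin of mesenchymal cells, had signals of 7167 and 6833 on starved wild-type and 27922 and 30861 on starved knockout arrays. In stimulated cells they were 6301 and 6878 against 29418 and 29884. The 4 knockout arrays lay far above the 4 wild-type arrays. The difference was 2.07 ± 0.10 in starved (4.19-fold, adjusted p = 2.7e-07) and 2.17 ± 0.10 in stimulated cells (4.5-fold, adjusted p = 2.2e-07). Cdh2, the cadherin of neurons that fibroblasts also carry, was 11553 and 8778 on starved wild-type and 9839 and 14378 on starved knockout arrays, which overlap, and 10619 and 9061 against 12212 and 11675 in stimulated cells. Its difference was 0.24 ± 0.19 in starved (adjusted p = 0.314) and 0.28 ± 0.19 in stimulated cells (adjusted p = 0.228). Without starved knockout array 1 the starved value was 0.51 (adjusted p = 0.0393).

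Cdh13, a cadherin held in the membrane by a lipid anchor in place of a transmembrane segment, was 2980 and 2565 on starved wild-type and 945 and 594 on starved knockout arrays. In stimulated cells it was 2257 and 2502 against 864 and 974. Knockout arrays were lower without overlap, by -1.86 ± 0.21 in starved (3.63-fold, adjusted p = 7.1e-05) and -1.36 ± 0.21 in stimulated cells (2.56-fold, adjusted p = 0.000526). A second, dimmer probe set gave -1.64 and -1.55, the latter lost without stimulated wild-type array 2 (adjusted p = 0.0602); below the percentile on all knockout arrays, it was at least 1.21-fold and at least 1.42-fold lower. The dimmest did not exceed 26.5. Cdh6, a classical cadherin of kidney and neural crest, read 792 and 738 on starved wild-type and 321 and 334 on starved knockout arrays. In stimulated cells it was 859 and 700 against 273 and 266. The knockout arrays were all below the 40th percentile, so its difference of -1.18 ± 0.24 in starved (adjusted p = 0.00228) and -1.47 ± 0.24 in stimulated cells (adjusted p = 0.00059) is given as at least 1.59-fold and at least 1.80-fold lower.

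Cdh17, a cadherin of intestine and liver, was 615 and 667 on starved wild-type and 59.6 and 111 on starved knockout arrays. In stimulated cells it was 527 and 487 against 26.4 and 113. The wild-type arrays were only just above their 40th percentile, and against that percentile the knockout was at least 1.34-fold lower in starved and at least 1.18-fold lower in stimulated cells. The fitted differences were -2.74 ± 0.54 (adjusted p = 0.00209) and -2.82 ± 0.54 (adjusted p = 0.00168), or -1.40 and -1.24 with the largest pseudocount tried. Cdh22 was 578 and 622 against 383 and 338 in starved cells and 545 and 553 against 251 and 348 in stimulated cells. All 4 knockout arrays were below the percentile, so it is given as at least 1.25-fold lower in starved and at least 1.27-fold lower in stimulated cells. Its fitted differences of -0.71 ± 0.26 (adjusted p = 0.0467) and -0.86 ± 0.26 (adjusted p = 0.0203) held in 7 and 14 of 17 alternatives; leaving out any starved array, or any array of the stimulated groups but knockout array 2, ended the call in that state (adjusted p up to 0.175 and 0.126).

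Cadm1 had much lower signals in knockout cells by all 4 of its probe sets. The brightest read 7977 and 5195 on starved wild-type and 468 and 450 on starved knockout arrays, and 7669 and 5376 against 563 and 408 in stimulated cells. Array 1 was higher than array 2 in both wild-type groups, a gap small beside that between genotypes. The difference was -3.77 ± 0.24 in starved (13.6-fold, adjusted p = 1.5e-06) and -3.70 ± 0.24 in stimulated cells (13.0-fold, adjusted p = 1.8e-06). The other 3 probe sets were below the 40th percentile on all knockout arrays and gave -4.33, -4.08 and -2.66 in starved and -3.72, -6.35 and -2.79 in stimulated cells. As bounds they were at least 8.28-fold, 4.83-fold and 1.89-fold lower in starved knockout cells, and the last of these calls was lost without starved wild-type array 1 or starved knockout array 2.

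All 4 plaque genes were lower in starved knockout cells, and 3 of them in stimulated ones. Over all tested probe sets 24.8% and 27.5% were called lower. The Pkp1 and Dsp probe sets passed the filter on wild-type arrays only, so this count is a description and no support. Pkp1, the plakophilin of stratified epithelia, had the largest difference among the 20 tested integrin, cadherin and junction genes. It was 5555 and 11026 on starved wild-type and 64.4 and 77.2 on starved knockout arrays, and 8515 and 12086 against 67.1 and 56.4 in stimulated cells. The knockout arrays were far below the 40th percentile, and array 2 was the higher in both wild-type groups. Against that percentile the knockout was at least 16.3-fold lower in starved and at least 23.5-fold lower in stimulated cells. The fitted differences were -6.50 ± 0.31 (adjusted p = 2.2e-07) and -7.03 ± 0.31 (adjusted p = 1.5e-07).

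Dsp, the protein that ties the desmosome to intermediate filaments, was 636 and 346 on starved wild-type and 113 and 142 on starved knockout arrays by its brightest probe set. In stimulated cells it was 563 and 263 against 77.5 and 113. All knockout arrays were below the percentile, as was wild-type array 2 in both states, so no fold is given. The differences of -1.77 ± 0.48 (adjusted p = 0.0121) and -1.87 ± 0.48 (adjusted p = 0.00868) were lost without starved wild-type array 1 (-1.35, adjusted p = 0.124) or starved knockout array 1 (-1.62, adjusted p = 0.0507), and without stimulated wild-type array 1 (-1.35, adjusted p = 0.0885) or stimulated knockout array 1 (-1.64, adjusted p = 0.051). With the largest pseudocount tried they were -0.94 and -0.89. A second probe set, 1435494_s_at, read 1323 and 749 against 18.4 and 83.6 in starved cells and 770 and 860 against 51.7 and 20.7 in stimulated cells. It was at least 2.08-fold and at least 1.89-fold lower (fitted -4.11, adjusted p = 0.000237, and -4.06, adjusted p = 0.00025).

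Pkp2, the plakophilin of heart and simple epithelia, read 4722 and 5798 on starved wild-type and 2295 and 2082 on starved knockout arrays, and 5722 and 6996 against 3355 and 3978 in stimulated cells. Knockout arrays were lower without overlap, by -1.25 ± 0.16 in starved (adjusted p = 0.000125) and -0.79 ± 0.16 in stimulated cells (adjusted p = 0.0021). A second probe set gave -1.09 and -0.83. The dimmest tested, 1460511_at, gave -1.44 in starved cells (adjusted p = 0.0156), where both knockout arrays were below the percentile. In stimulated cells it gave 0.11 (adjusted p = 0.836), with 512 and 751 on wild-type and 657 and 689 on knockout arrays, which overlap. Jup, shared by desmosomes and classical junctions, was 2756 and 3021 against 2299 and 1866 in starved cells and 2723 and 3119 against 2535 and 2883 in stimulated cells. Its stimulated groups overlapped. It was called lower in starved cells (-0.47 ± 0.15, adjusted p = 0.0269) and not in stimulated cells (-0.11 ± 0.15, adjusted p = 0.582), and the starved call was lost in 4 of 18 alternatives: without either starved wild-type array, in the fit to just the arrays compared, and without starved knockout array 2 (-0.33, adjusted p = 0.151).

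**Figure D3:**
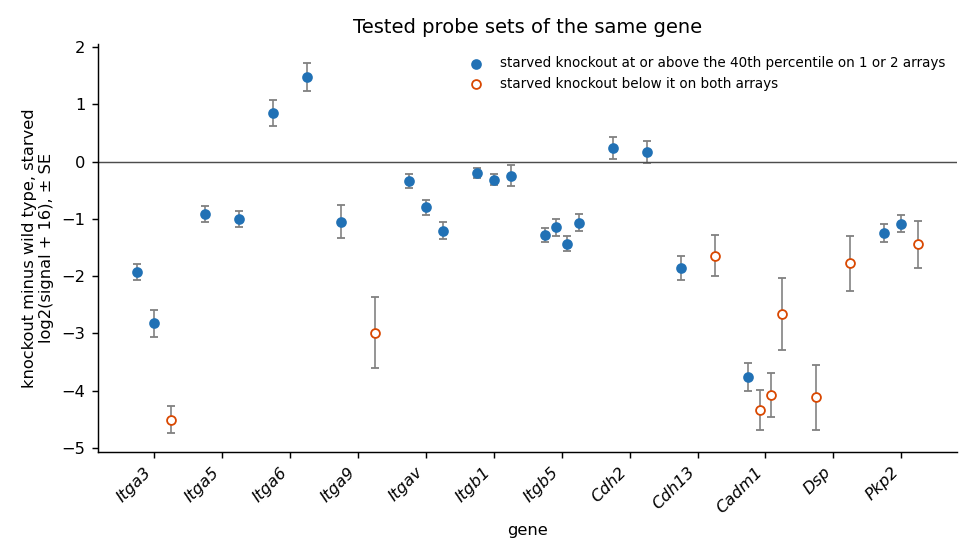
Difference between knockout and wild-type starved cells in log2(signal + 16), with 1 SE, for every tested probe set of the 12 genes that have more than 1; open circles mark probe sets whose starved knockout arrays were both below the 40th percentile. Probe sets of a gene share a sign throughout, but their size varies, from -1.93 to -4.51 for Itga3 and from -0.34 to -1.21 for Itgav.

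The shares of these probe sets called after 30 min of serum, 5% in wild-type and 22.5% in knockout cells, were near those of all tested probe sets. In wild-type cells 2 of the 40 probe sets were called, both higher and both of Itga5, where 4.14% of all tested probe sets were called. Itga5 is the alpha chain of the main fibronectin receptor, with beta 1 as its partner. Its brightest probe set read 3603 and 4108 on starved and 10157 and 11702 on stimulated wild-type arrays, and 2256 and 1842 against 9211 and 10322 on knockout arrays. Each stimulated array was above each starved array in both genotypes. The rise was 1.5 ± 0.14 in wild-type (2.83-fold, adjusted p = 0.000196) and 2.25 ± 0.14 in knockout cells (4.75-fold, adjusted p = 4.3e-06). A second probe set rose by 1.28 (adjusted p = 0.000338) and 1.88 (adjusted p = 9.8e-06).

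Itga5 started lower in the starved knockout cells and ended near the wild-type level. Between genotypes its brightest probe set differed by -0.91 ± 0.14 in starved (adjusted p = 0.000523) and -0.16 ± 0.14 in stimulated cells (adjusted p = 0.375). The second gave -1.0 and, in stimulated cells, -0.40 (adjusted p = 0.0291), a call lost after median centring and without stimulated wild-type array 2 or knockout array 1. The difference between the serum responses, 0.75 ± 0.20, did not pass the test (adjusted p = 0.0822), nor did that of the second probe set (0.60, adjusted p = 0.129). Without starved knockout array 1 the first was 0.90 (adjusted p = 0.0471).

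In knockout cells 9 of the 40 probe sets were called with serum, 5 higher and 4 lower, where 9.33% of all tested probe sets were called higher and 13.8% lower (23.1% in all). The median of the 40 was -0.07, beside -0.13 over all tested. The 5 higher were 2 of Itga5 and 3 of Pkp2, and the 4 lower were 3 of Itgb5 and 1 of Cadm1. Without starved knockout array 1 there were 15 called, and 4 of the 9 calls held under every alternative.

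Pkp2 rose with serum in knockout cells from 2295 and 2082 to 3355 and 3978 by its brightest probe set, a change of 0.74 ± 0.16 (1.67-fold, adjusted p = 0.00858). That call was lost without stimulated knockout array 2 (0.61, adjusted p = 0.0737). A second probe set gave 0.60 (adjusted p = 0.0163) and was lost without that array as well (0.50, adjusted p = 0.115) or without starved knockout array 2 (0.61, adjusted p = 0.0501). The dimmest tested, 1460511_at, gave 2.16 (adjusted p = 0.00506), from 226 and 82.5, below the percentile, to 657 and 689, at least 1.40-fold higher. In wild-type cells the brightest changed by 0.27 ± 0.16 (adjusted p = 0.41), and the difference between the responses was 0.46 ± 0.22 (adjusted p = 0.294).

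Itgb5 went the other way in knockout cells, from 8700 and 7984 to 5352 and 5995, a change of -0.56 ± 0.12 (1.47-fold, adjusted p = 0.00854). That call was lost without stimulated knockout array 1 (-0.47, adjusted p = 0.0827) and after median centring (-0.40, adjusted p = 0.0543). Of its other probe sets, 1417533_a_at gave -0.76 (adjusted p = 0.00592) and was lost without the same array (-0.61, adjusted p = 0.0629). Probe set 1417534_at gave -0.89 (adjusted p = 0.00108) and 1456195_x_at -0.41 (adjusted p = 0.0621). In wild-type cells the change of the brightest was -0.18 ± 0.12 (adjusted p = 0.476), and the responses differed by -0.38 ± 0.17 (adjusted p = 0.26). The called Cadm1 probe set, 1417377_at, went from 188 and 77.5 to 16.7 and 25.6, all below the 40th percentile. Its change of -1.91 (adjusted p = 0.00653) became -0.47 (adjusted p = 0.118) with the largest pseudocount tried, and the brighter Cadm1 probe set changed by 0.06 (adjusted p = 0.884).

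**Figure D4:**
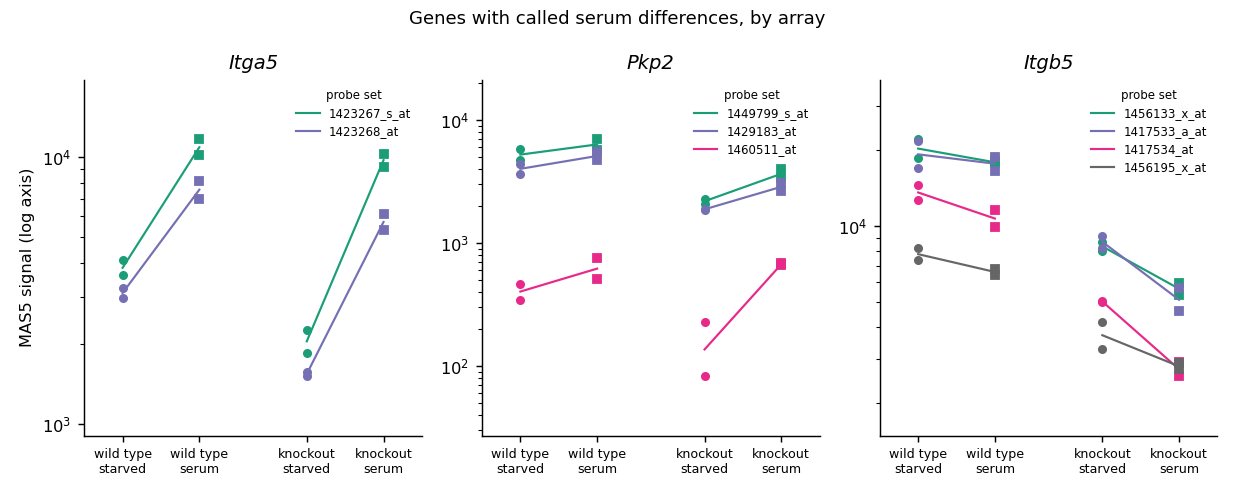
Signal on a log axis (arbitrary units) of each tested probe set of Itga5, Pkp2 and Itgb5 in starved and serum-treated cells of each genotype, 1 point per array, with lines joining the group means. The Itga5 lines climb in both genotypes (2.83-fold and 4.75-fold for 1423267_s_at), the Pkp2 lines climb and the Itgb5 lines descend in knockout cells.

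No probe set of these genes passed the limma interaction test, which asks whether serum acted differently in the 2 genotypes. Over all tested probe sets 2.69% did. At an unadjusted p under 0.05 there were 8 of 40, beside 2830 of 14947 tested. The other 38 probe sets without a call in wild-type cells had serum differences from -0.34 to 0.60. The measurable cadherins, from -0.33 to 0.02 in wild-type and -0.41 to 0.29 in knockout cells by their brightest probe sets, had no serum call in either genotype. At an unadjusted p under 0.05 there were 0 of 6 in each.

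Genes around the integrins and cadherins were taken from lists drawn up with earlier results known, each read from its brightest probe set. The counts stand beside the shares of all tested probe sets called in either direction: 47.6% between starved and 50.2% between stimulated genotypes, 4.14% with serum in wild-type and 23.1% in knockout cells. Of 15 measurable linkers and kinases that join integrins to actin, 7 were higher and 4 lower in starved knockout cells, and 5 higher and 3 lower in stimulated ones. The kinase Ptk2b, below the percentile on all knockout arrays, was at least 4.13-fold and at least 5.02-fold lower (fitted -2.68 and -2.88). Lower too were the linker Tns1 (-1.89 and -2.15) and the kinase Src (-1.23 and -2.17), whereas Lims2 was higher (1.67 and 1.81). With serum, 2 rose in wild-type cells, Bcar1 (0.66, adjusted p = 0.046) and the focal adhesion protein Zyx (0.47, adjusted p = 0.0186), and in knockout cells 3 rose and 3 fell, with Bcar1 at 1.60. The wild-type calls were lost in 9 of 18 alternatives for Bcar1 and 7 of 18 for Zyx. Both were lost without starved wild-type array 1 (Bcar1 0.46, adjusted p = 0.237; Zyx 0.39, adjusted p = 0.106) or without any 1 stimulated array of either genotype (adjusted p up to 0.224 and 0.117).

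Beside the same shares of all tested probe sets (47.6% and 50.2% between genotypes), of 19 measurable matrix ligands, 10 were higher and 4 lower in starved knockout cells and 8 higher and 6 lower in stimulated ones. The laminin chain Lama4 was higher (3.01 ± 0.13 in starved cells) and Tgfb1, whose latent form binds alpha v integrins, lower: it was below the percentile on all knockout arrays, so at least 10.6-fold and at least 15.8-fold (fitted -3.73 and -4.5). With serum, 0 of the 19 were called in wild-type cells (limma, 0 also at an unadjusted p under 0.05) and 1, Lamc1, fell in knockout cells (-0.35, adjusted p = 0.0386). The Lamc1 call was lost in 10 of 18 alternatives, among them median centring (-0.19, adjusted p = 0.327) and leaving out any 1 starved knockout array or any 1 stimulated array of either genotype. Of 10 membrane proteins that accompany integrins (47.6% and 50.2% of all probe sets called), 4 were lower in starved and 6 in stimulated knockout cells and none was higher. Cd82, a tetraspanin, was at least 11.9-fold lower in starved knockout cells, where both knockout arrays were below the percentile (fitted -3.78), and lower by -3.79 in stimulated cells, where knockout array 1 was below it. The tetraspanins Cd151 (-1.49 and -1.56) and Cd9 (-0.70 and -0.93) were lower too. Plaur, the urokinase receptor, rose with serum by 1.82 ± 0.19 in wild-type (3.53-fold, adjusted p = 0.000326) and 1.86 ± 0.19 in knockout cells (3.63-fold, adjusted p = 0.000115). The syndecan Sdc4 rose by 0.80 and 0.79; the wild-type call was lost in 4 of 18 alternatives, without either starved wild-type array, without stimulated wild-type array 1 (0.63, adjusted p = 0.104) and without the mean-variance trend.

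Of 9 catenins and junction partners (47.6% and 50.2% of all probe sets called), 1 was higher and 4 lower in starved knockout cells, and 1 higher and 2 lower in stimulated ones. F11r, a tight junction adhesion molecule below the percentile on all knockout arrays, was at least 3.50-fold and at least 3.30-fold lower (fitted -3.17 and -2.87). Beta-catenin, Ctnnb1, was higher in stimulated knockout cells (0.49 ± 0.10, adjusted p = 0.0021), and by 0.27 after quantile normalization (adjusted p = 0.0101). With serum none of the 9 was called in wild-type cells (limma, 3 at an unadjusted p under 0.05), and 3 rose and 2 fell in knockout cells, with the nectin Nectin2 at 1.03. Of 9 further desmosomal cadherin and plaque genes on the array, 3 were measurable, and 0 were called in any of the 5 comparisons by limma (0 at an unadjusted p under 0.05). Of 5 measurable atypical cadherins and protocadherins, 2 were higher and 1 lower in starved and 2 higher and 2 lower in stimulated knockout cells, with Pcdh7 at -1.08 and -1.34 and Pcdhb17 at 1.02 and 1.29. With serum, 0 were called in wild-type cells (1 at an unadjusted p under 0.05) and 1, Pcdh18, fell in knockout cells (-0.55), a call lost in 4 of 18 alternatives: after median centring (-0.40, adjusted p = 0.12), with no mean-variance trend, and without starved knockout array 2 (-0.48, adjusted p = 0.102) or stimulated knockout array 2 (-0.40, adjusted p = 0.17). Of 9 other immunoglobulin adhesion genes, 2 were higher and 3 lower in starved and 2 higher and 4 lower in stimulated knockout cells, with Mcam at -2.39 and -2.89 and Alcam at 1.52 and 1.02. None of the 9 was called with serum in either genotype (2 and 0 at an unadjusted p under 0.05).

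Of 10 transcription factors listed here as repressors of Cdh1, 9 were on the array and measurable. Cdh1 itself was below the percentile on every array, and the action of the listed factors on it was not tested. In starved knockout cells 5 of the 9 were higher and 1 lower, beside 47.6% of all tested probe sets called. Twist2 and Foxc2, both below the percentile on the starved wild-type arrays, were at least 7.60-fold and at least 4.18-fold higher (fitted 3.41 and 2.33), and Snai2 was higher by 2.32. In stimulated ones 3 were higher and 2 lower. Snai1, the Snail factor, read 3256 and 1948 on starved and 12950 and 11782 on stimulated wild-type arrays, and 3238 and 2547 against 3697 and 4715 on knockout arrays. It rose with serum by 2.29 ± 0.23 in wild-type cells (4.88-fold, adjusted p = 0.000254) and its change in knockout cells was 0.54 ± 0.23 (adjusted p = 0.116). The difference between those responses was called (-1.75 ± 0.32, adjusted p = 0.0217), as was that of Foxc2 (-2.57 ± 0.34, adjusted p = 0.00471). So 2 of the 9 passed the interaction test, beside 2.69% of all tested probe sets. With serum, 2 of the 9 rose in wild-type cells and 3 fell in knockout cells. Over all tested probe sets 4.14% and 23.1% were called in either direction.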

How the data were processed

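Total RNA was labelled with biotin and run on 8 arrays, per the labels' protocols. The authors deposited intensity values, 1 per probe set, on a linear scale by their range; the submitters' processing notes name MAS5, with no version. MAS5 subtracts mismatch signal, so low intensity is noisy. Detection calls were not used here. The array platform's table named the genes, and the current symbol of all 71 probe sets was the same. Of 22690 probe sets, 64 controls were left out and 14947 (66.1%) were tested, each reaching the 40th percentile of its array on 2 or more arrays.

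Values were analysed as log2(signal + 16) with limma 3.58.1 in R 4.3.3: means of the 4 groups over all 8 arrays, eBayes with trend (4 residual and 6.07 prior degrees of freedom), two-sided, Benjamini-Hochberg adjusted over all tested probe sets. The 5 comparisons were serum in each genotype, their interaction, and knockout against wild type in each serum state. Comparisons that share arrays are not independent. With 2 arrays against 2 an exact permutation test cannot give a p under 0.333. The number of arrays limits the precision. The procedure was also run on simulated data with independent noise and few changed probe sets. That setting differs from the genotype comparisons here, and no support is drawn from it.

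A gene was read from its brightest probe set by mean log2 signal. Genes with a called difference over 1 on the log2 scale, and Cdh1, Cdh2, Cdh11, Itgb1, Itgav and Itga5, were named with their arrays; Cdh22 and Jup, the other tested genes, were added after their values were seen. From each list up to 4 called genes of largest difference were eligible. The genes and lists were chosen with earlier results of these data known. A probe set below the 40th percentile on both arrays of a group was given as a bound, with that percentile in place of lower values, where the bound is over 1-fold; fitted differences stand beside it. Lists held linkers and kinases, matrix ligands, integrin-associated proteins, catenins and junction partners, desmosomal genes, atypical cadherins, repressors of Cdh1, immunoglobulin adhesion genes, and markers of fibroblasts, epithelium, endothelium, blood, nerve and muscle. Of 176 listed adhesion and marker genes 150 were on the array. Alternatives were pseudocounts of 1, 64 and 256, quantile normalization, median centring, no filter or a 60th percentile filter, no trend, a fit to just the arrays compared, a block for the set number, and leaving out each array.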

Additional observations from a re-analysis of the deposited data

Results flagged for a closer look

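The serum responses of 2 genes from the list of Cdh1 repressors differed between genotypes by the limma interaction test. That test called 2.69% of all tested probe sets and none of the integrin, cadherin or junction probe sets. For Snai1 the response in knockout cells minus that in wild-type cells was -1.75 ± 0.32 in log2 units (adjusted p = 0.0217). That call was lost without stimulated wild-type array 1 (adjusted p = 0.0737), stimulated wild-type array 2 (adjusted p = 0.0646) or stimulated knockout array 1 (adjusted p = 0.0999), and without the mean-variance trend (adjusted p = 0.0753).

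For Foxc2 the difference was -2.57 ± 0.34 (adjusted p = 0.00471), and it was called in every alternative tried. Its signals were 416 and 347 on starved, below the 40th percentile, and 728 and 1091 on stimulated wild-type arrays, against 2243 and 1742 on starved and 703 and 808 on stimulated knockout arrays. It was 1.2 higher with serum in wild-type cells (adjusted p = 0.0205), a call lost without starved wild-type array 1 or 2 or stimulated wild-type array 2 and with no filter. Against the percentile of the starved arrays this is at least 1.88-fold. In knockout cells the change was -1.37 (adjusted p = 0.00321).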

How the results depend on the processing

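The 2 calls with serum in wild-type cells held in every alternative. With serum in knockout cells 9 probe sets were called, 8 to 10 in the alternatives that keep all arrays, and 7 to 15 when 1 array was left out. For the interaction, 0 were called, 0 to 3 when 1 array was left out (3 without starved knockout array 1, 1 of Itga5, Itga9 and Pkp2 each; 1, of Cadm1, without starved knockout array 2), and 1, of Cadm1, with a pseudocount of 1. The replicate block by set number also gave 1 there, of Cadm1 (adjusted p = 0.0498), and moved no other count by over 1.5 times. The labels do not say that numbers pair samples. Over probe sets, the set 2 minus set 1 differences of starved and stimulated cells correlated at 0.21 in wild-type and 0.10 in knockout cells. Between groups of different genotype they correlated at -0.03 to 0.006. The block fits 1 shift shared by both genotypes, so it cannot account for a shift within 1 genotype. Knockout against wild type gave 26 to 37 calls in starved and 25 to 35 in stimulated cells, against 36 and 33. The lowest counts, 26 and 25, came with the 60th percentile filter, which left 30 of these probe sets tested. The 35 came with no filter, where all 71 were tested. Of 39 called results of single genes 26 kept their call and direction in every alternative, as did 58 of 79 for listed genes; none reversed. Median centring moved the median of all probe sets by over 0.1 for serum in knockout cells (-0.13 to 0.03), the interaction (-0.06 to 0.05) and knockout against wild type in stimulated cells (-0.07 to 0.09). Low signals limit what can be said of 31 probe sets, which lay below the 40th percentile on all arrays. The causes of these changes were not tested.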

Other observations

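The first and the second wild-type arrays differed from each other in the same direction in both serum states for several genes, chosen here after their values were seen. Cadm1 was higher on array 1 by all 4 probe sets (7977 against 5195 in starved and 7669 against 5376 in stimulated cells for the brightest), and Dsp was higher on array 1 by its brightest probe set (636 against 346 and 563 against 263). Another Dsp probe set, 1435494_s_at, was higher on array 1 in starved cells (1323 against 749) but lower on it in stimulated cells (770 against 860). Pkp1 was higher on array 2 (11026 against 5555 and 12086 against 8515). Among matrix genes, Col1a2 read 581 on array 1 and 8871 on array 2 in starved wild-type cells, and 743 and 9443 in stimulated ones. Nid1, which links laminin to collagen in basement membranes, read 13.0 and 411 in starved and 18.2 and 459 in stimulated wild-type cells, all below the 40th percentile of their arrays. On the knockout arrays Col1a2 lay between 62376 and 91077 and Nid1 between 14951 and 18198. The difference between starved genotypes was 5.11 for Col1a2, or 3.17 without starved wild-type array 1, and in stimulated cells it was 4.58, or 2.76 (adjusted p = 0.082) without stimulated wild-type array 1.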
